A study of Homo sapiens with 3 samples.

Results

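Inhibition of SCD1 by a small molecule was set directly against loss of the SCD1 gene in HCT-116, a line of human colorectal cancer cells. For each probe set of an expression array the signal of SCD1-WT cells treated with T-3764518 was divided by the signal of SCD1-KO cells, and the DMSO array of SCD1-WT cells did not enter that ratio. The ratio was taken for probe sets of exactly 1 gene that reached, in mean log2 signal over the 3 arrays of the series, the median level of the array. Where several probe sets of a gene passed, the median of their log2 ratios was taken. This left 12321 genes out of 19775 with a probe set of their own. A positive log2 ratio means a higher signal with T-3764518 and a negative one a higher signal in SCD1-KO cells.

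SCD1-WT cells were treated with 100 nM T-3764518, an SCD1 inhibitor, for 24 h, and the DMSO array is of SCD1-WT cells given the vehicle for 24 h. SCD1-KO cells were made from the same line with CRISPR-Cas9 and a pair of guides against SCD1, selected with puromycin and grown out by limiting dilution, so the array stands for 1 clone. The label of the SCD1-KO array names neither vehicle nor time, and the methods of the study describe DMSO for the same 24 h. Each condition had 1 array, so no difference has a replicate check, no p-value was computed, and clone, genotype and array cannot be told apart. A bulk signal also cannot tell fewer cells of a kind from less RNA per cell.

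SCD1, the product of the SCD gene, is the endoplasmic reticulum enzyme that places a double bond in saturated acyl chains and so makes oleate and palmitoleate from stearate and palmitate. Unsaturated acyl chains feed membrane lipids, triglycerides and cholesteryl esters, and they also restrain SREBP, the transcription factor of lipid synthesis genes. When saturated chains accumulate in the endoplasmic reticulum membrane, the sensors of the unfolded protein response can be activated. An inhibitor leaves the protein in place, whereas a knockout clone has grown without the enzyme for many cell divisions.

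The arrays gave 1 MAS5 signal, a background-subtracted and scaled brightness, for each of 54675 probe sets. The median signal was 56.7 with T-3764518 and 62.4 in the knockout, at a common trimmed mean of 500.1. The filter kept 23192 probe sets above a mean signal of 56.6. ASPH, the last kept, had a mean of 56.581 (log2 ratio 0.35), and NPAS1, the first left out, a mean of 56.577 (log2 ratio -0.65). The 3′ to 5′ signal ratio of ACTB, a measure of RNA integrity, was 1.36 with T-3764518 against 1.54 in SCD1-KO cells, and the GAPDH ratios were 0.927 and 1.07. The median log2 ratio of T-3764518 over SCD1-KO was 0.02 for 18 hybridisation controls and 0.27 for 24 labelling controls, and the part of these differences in the gene values was not tested. Signals of the SCD1-KO array are written with extra decimals, and no source used here says whether all arrays were processed together, so a part of separate processing in the ratios was not tested. Of the colorectal epithelial markers, EPCAM, KRT8, KRT18, KRT19 and CDH1 had signals of 1285 or more on both arrays by their brightest probe set, whereas CDX1, GPA33 and CDH17 lay under the filter level on both. Of 13 markers of blood, stroma, endothelium, liver, glia and muscle, 5 reached the filter level with T-3764518 and 4 in the knockout, with summed signals of 2059 and 1511, of which COL1A1 made up 1409 and 1090.

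Genes were called at a 2-fold difference. With T-3764518, 382 genes were at least 2-fold higher than in SCD1-KO cells, which is 3.1% of those tested, and 557 genes (4.52%) were at least 2-fold higher in the knockout. These shares of all genes, 3.1% and 4.52%, are the background for every count of called members below, and they are not matched for signal. A short list with 0 called members is close to that background. Of the called genes, 40.7% were higher with T-3764518. The split depended on the scaling, and this share was 53.3% after quantile normalization, 53.1% after a lowess correction and 57.7% after scaling to 1 median, where the median of all genes went from -0.06 to 0.08, a shift of 0.14. The middle 50% of genes lay between log2 ratios of -0.36 and 0.24. Probe sets of 1 gene differed from each other by a standard deviation of 0.67 on the log2 scale in the dimmest of 5 equal signal classes of genes and of 0.23 in the brightest, and 17.4% and 2.35% of the genes of these classes were called. In the dimmest class 275 of 2465 genes were called higher in the knockout and 153 with T-3764518. In the brightest class these were 18 and 40 of 2464. The shares over all genes are therefore a low background for lists of dim genes. Among called genes 637 had 1 probe set only.

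**Figure D1:**
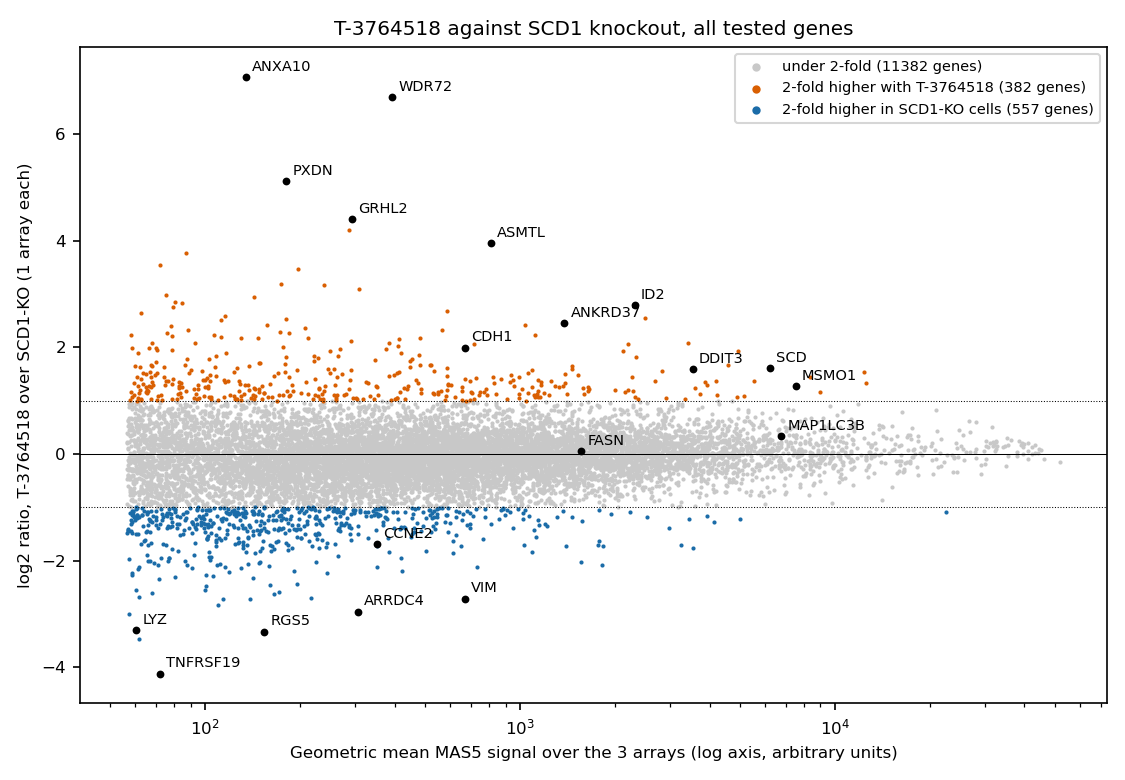
Each point is 1 of 12321 genes, with the geometric mean signal over the 3 arrays on the horizontal log axis and the log2 ratio of T-3764518 over SCD1-KO on the vertical axis, 1 array each. Orange genes (382) were at least 2-fold higher with T-3764518, blue genes (557) at least 2-fold higher in the knockout, and the called genes thin out as the signal increases.

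SCD itself was higher with the inhibitor than in the knockout clone. Its 4 probe sets had signals of 21595, 39350, 6908 and 8438 with T-3764518, against 7692, 24119, 1965 and 2521 in SCD1-KO cells and 3654, 23841, 834 and 984 with DMSO. All 4 were highest with T-3764518. All 4 read higher in SCD1-KO cells than with DMSO, but the brightest was nearly equal, at 24119 against 23841. The gene's ratio was 3.07-fold (log2 ratio 1.62), and its probe sets ranged from 1.63-fold to 3.51-fold, the smallest for the brightest probe set, for which the inhibitor array read 39350, the highest signal of any probe set on that array being 54037. By that probe set alone SCD would not pass 2-fold. The position of the deletion on the probe sets is not given here, so these signals do not check the knockout. The 20 tested genes next to SCD, from ENTPD7 to LZTS2, had log2 ratios between -0.78 for PAX2 and 0.49 for CPN1, and 0 of them was called.

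Of 9 tested fatty acid synthesis genes, 0 reached 2-fold in either direction, close to the shares of 3.1% and 4.52% over all genes. Their median log2 ratio was 0.05 against -0.06 for all genes, and it turned to -0.03 without the signal filter. FASN, the synthase that makes palmitate, had signals of 2056 with T-3764518, 1982 in the knockout and 941 with DMSO, and a log2 ratio of 0.05. ACSS2, which makes acetyl-CoA from acetate, read 2732, 2515 and 691 in that order, so the inhibitor and the knockout lay close together and apart from DMSO. The member farthest from 0 was ME1, the malic enzyme that supplies NADPH, at 8148 and 5280 (log2 ratio 0.63). ACACA and ACACB, the acetyl-CoA carboxylases, had log2 ratios of -0.17 and -0.29.

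Cholesterol synthesis genes stood higher with T-3764518. Of 16 tested members 14 lay above the median of all genes, 2 were called, and the median log2 ratio was 0.51. MSMO1, a sterol C4-methyl oxidase, had signals of 14159 with T-3764518, 5869 in the knockout and 5102 with DMSO, a 2.41-fold difference. SC5D, the lathosterol desaturase, read 3960, 1927 and 1730 and was 2.06-fold higher. For both genes the SCD1-KO signal was close to that of DMSO. MSMO1 and SC5D each lie in a stretch of neighbouring genes that was low as a whole in SCD1-KO cells, described further on, and without these 2 members 0 of the other 14 was called and the median was 0.45. HMGCS1, which makes HMG-CoA, had signals of 4579, 2564 and 666 and a log2 ratio of 0.84, and NSDHL, another enzyme of C4 demethylation, one of -0.55. On the DMSO array 13 of the 16 genes had a signal nearer to SCD1-KO cells.

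The regulators of that pathway were less uniform. INSIG2, which holds the SREBP complex in the endoplasmic reticulum, was the 1 called member of 11, at 1957 with T-3764518, 895 in the knockout and 2336 with DMSO (2.19-fold), so here the knockout clone stood apart. Its paralog INSIG1, itself an SREBP target, read 6168, 3478 and 992 (log2 ratio 0.80). The median of the list was 0.15. ABCA1, the cholesterol exporter induced by LXR, was lower with T-3764518, with signals of 66.5 against 359 in SCD1-KO cells and 312 with DMSO, at least 4.63-fold. It was the only called member of 7 genes of the LXR list.

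Other lipid lists held few called members. SGMS1, a sphingomyelin synthase, was 2.55-fold higher with T-3764518, MGLL, the monoacylglycerol lipase, 2.05-fold, and CDS1, a CDP-diacylglycerol synthase, 2.24-fold. MBOAT7, an acyltransferase of phosphatidylinositol, was 2.15-fold higher in SCD1-KO cells. ETFDH, the flavoprotein dehydrogenase that hands electrons of fatty acid oxidation to ubiquinone, was 2.91-fold higher with T-3764518 and lies in the same stretch as MSMO1. The medians of these 4 lists lay between 0.01 and 0.14.

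Of 20 tested chaperones and stress sensors of the endoplasmic reticulum 1 was called, and it was higher with T-3764518. All 20 had a log2 ratio above 0, from 0.19 for CRELD2 to 1.36, with a median of 0.56, but the other 19 did not reach 2-fold. HYOU1, a large chaperone of the endoplasmic reticulum, was the called member, with signals of 7183 with T-3764518, 2805 in the knockout and 2848 with DMSO (2.56-fold), and it too lies in a stretch that was low in SCD1-KO cells. HSPA5, the chaperone BiP, read 11195, 6243 and 5128, and DNAJB9, a BiP co-chaperone, 4540, 2700 and 1241. XBP1, the transcription factor spliced by IRE1, read 4410, 2878 and 1821. In these 4 genes T-3764518 gave the highest signal, and for 16 of the 20 DMSO lay nearer to SCD1-KO cells.

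The ATF4 pathway, which answers amino acid shortage and endoplasmic reticulum stress, gave 3 called members of 16, all higher with T-3764518, and a median of 0.53. DDIT3, the transcription factor CHOP, had signals of 8567 with T-3764518, 2840 in the knockout and 1813 with DMSO (3.02-fold). STC2, a secreted glycoprotein, read 2353, 975 and 1118 (2.41-fold). ATF3, a stress-induced repressor, read 1814, 862 and 305 (2.35-fold). DMSO was nearest to SCD1-KO cells in 13 of 16 members. ATF4 itself had a log2 ratio of 0.28, and NUPR1, a chromatin-bound stress factor, one of -0.85. Downstream lists were closer to 0, with 0 of 10 serine and asparagine synthesis genes and 0 of 17 aminoacyl-tRNA synthetases called at medians of 0.12 and 0.31. SLC1A3, a glutamate transporter, was the 1 called of 12 amino acid transporters, 2.27-fold higher with T-3764518.

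DNA replication genes stood lower with T-3764518. Of 26 tested members 5 were at least 2-fold higher in the knockout, 0 with T-3764518, and the median was -0.63. CCNE2, cyclin E2 of S phase entry, had signals of 148 with T-3764518, 479 in the knockout and 617 with DMSO (3.23-fold). GINS2, a subunit of the replicative helicase complex, read 442, 1160 and 1668 (2.62-fold), and CDC25A, a phosphatase that activates CDK2, 50.9, 129 and 126, at least 1.81-fold. For 24 of the 26 genes DMSO lay nearer to SCD1-KO cells. Of 22 genes of G2 and mitosis 0 was called, close to the shares of 3.1% and 4.52% over all genes. Their median was -0.02. Among 5 tested histone genes the log2 ratios were 0.54 to 1.00, all higher with T-3764518, with H2BC21 just past the threshold. Of 15 genes of p53 and its targets, TP53INP1, a stress-induced autophagy protein, was called, 2.60-fold higher in SCD1-KO cells, at a list median of -0.37.

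**Figure D2:**
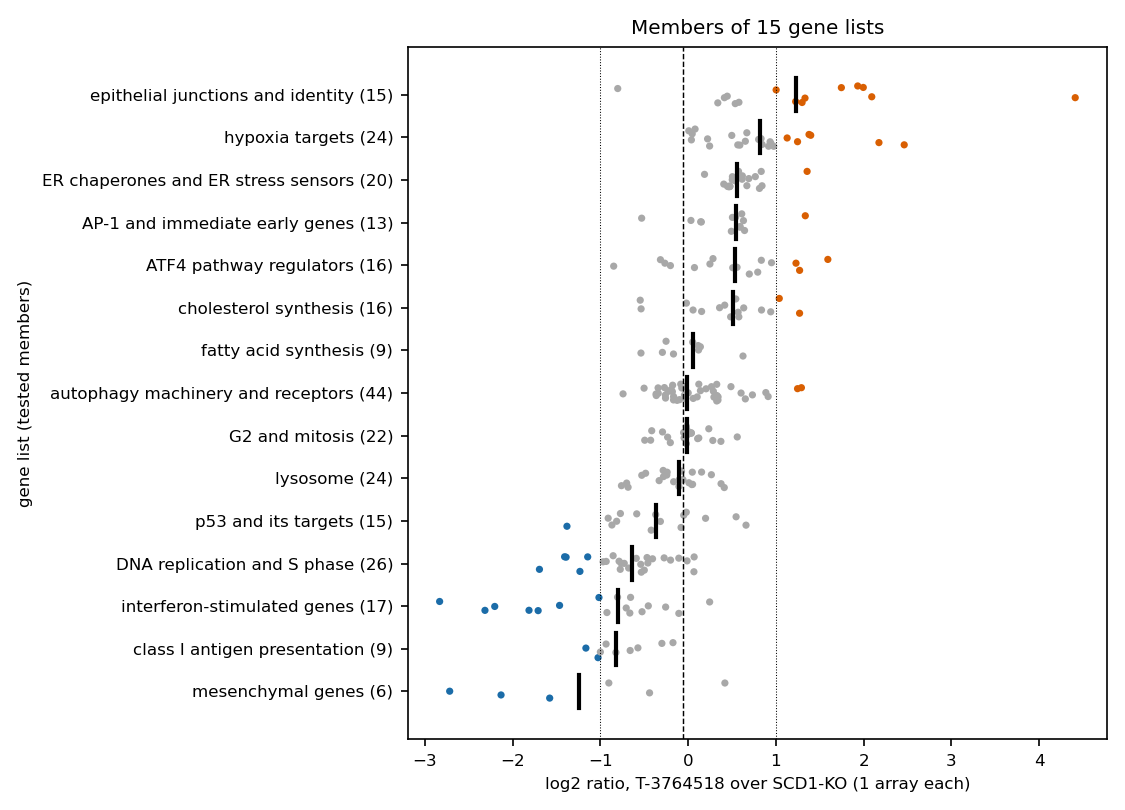
Each point is a gene of 1 of 15 lists at its log2 ratio of T-3764518 over SCD1-KO (1 array each), with orange and blue for genes at least 2-fold higher with the inhibitor or in the knockout. Black bars are list medians, from 1.23 for epithelial junctions to -1.24 for mesenchymal genes, and the dashed line is the median of all genes at -0.06.

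Epithelial and mesenchymal genes separated the arrays more widely than any lipid list. Of 15 tested epithelial genes 9 were called higher with T-3764518 and 0 in the knockout, with a median of 1.23, or 0.98 with a constant added to every signal. GRHL2, a grainyhead-family factor that maintains epithelial gene expression, had signals of 782 with T-3764518, 36.7 in the knockout and 873 with DMSO, at least 13.8-fold higher. ESRP1, an epithelial splicing regulator, read 6442, 1509.9 and 4119 (4.27-fold). CDH1, the adhesion protein E-cadherin, read 1197, 300.1 and 835 (3.99-fold), and the tight junction protein CLDN7 read 9013, 2360.1 and 5580.1. In all 4 genes SCD1-KO cells were low and both SCD1-WT arrays high. CLDN2 was the 1 of 15 members below the median of all genes, at -0.80. EPCAM, the epithelial cell adhesion molecule, was 2.52-fold higher with T-3764518. It was named from the separate list of colorectal epithelial markers, which had 2 of 7 tested members called and a median of -0.03. In that list 4 members lay above the median of all genes and 3 below, with CDX2 lowest at -0.92.

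Of 6 tested mesenchymal genes 3 were called, all higher in SCD1-KO cells, at a median of -1.24. VIM, the intermediate filament vimentin, had signals of 314 with T-3764518, 2061 in the knockout and 463 with DMSO (6.57-fold). ZEB1, a repressor of E-cadherin, read 149, 381 and 143 (2.98-fold), and SPARC, a matrix glycoprotein, 71.8, 315 and 97.3, at least 3.98-fold. TWIST1, a further factor of the list, had a log2 ratio of 0.42. All 6 genes had a DMSO signal nearer to that with T-3764518. Keratins did not follow, with 1 of 7 called, and KRT8, KRT18 and KRT19 had log2 ratios of -0.35, -0.12 and -0.03. KRT20, a keratin of differentiated gut epithelium, was 3.27-fold higher in SCD1-KO cells.

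Targets of hypoxia-inducible factor (HIF), the oxygen-regulated transcription factor, stood higher with T-3764518 than in SCD1-KO cells. All 24 tested members had a log2 ratio above 0, 6 were called, and the median was 0.82, or 0.57 without probe sets that may read several transcripts. ANKRD37, an ankyrin repeat protein, had signals of 2018 with T-3764518, 366 in the knockout and 3595 with DMSO (5.51-fold). It lies, like MSMO1, in the stretch from TMEM154 to TRIML2 that was low in SCD1-KO cells. ANGPTL4, a lipoprotein lipase inhibitor, read 678, 150.03 and 1102 (4.52-fold). P4HA2, a collagen prolyl hydroxylase, read 1205, 458 and 1544 (2.63-fold), and BNIP3, a mitophagy receptor, 4338, 1827 and 5903 (2.37-fold). SCD1-KO cells had the lowest signal in these 4 genes and DMSO the highest. For 20 of the 24 members DMSO lay nearer to T-3764518. HIF1A, the oxygen-regulated subunit itself, was at 15282 and 15193.

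The core of the HIF site, ACGTG, was looked for on both strands in the 250 bases before the start of each gene's first listed RefSeq promoter, to describe the called genes by sequence. It was present in 5 of the 6 called hypoxia genes, namely ANKRD37, BNIP3, P4HA1, ANGPTL4 and INSIG2, and not in P4HA2. INSIG2 is also the called member of the SREBP regulators above. The core was present in 8 of 20 list members with a listed promoter and in 18.7% of 27305 genes. It was not particular to this list. Among the other lists searched it ranged from 1 of 14 cholesterol synthesis promoters to 7 of 19 of endoplasmic reticulum chaperones, with 3 of 9 of epithelial genes. A match describes the letters only. Shown 5′ to 3′ on the gene's strand from GRCh38.p14, with matches on either strand in capitals, are ANKRD37 (chr4:185396591-185396840, plus strand), BNIP3 (chr10:131981924-131982173, minus strand), P4HA1 (chr10:73096867-73097116, minus strand) and ANGPTL4 (chr19:8363905-8364154, plus strand). The same windows were searched for a sterol-response motif of SREBP, TCACNCCAC, which was in 0 of 14 cholesterol synthesis promoters and in 0.875% of all genes, and for the ATF4 with C/EBP motif TGATGNAA, which was in 2 of 14 promoters of the ATF4 pathway regulators and in 3.19% of all genes. Of the called genes of that list the ATF3 window held it and the DDIT3 and STC2 windows did not. In the ANKRD37 and BNIP3 windows the HIF core occurs as the palindrome CACGTG, which counts once on each strand.
ANKRD37: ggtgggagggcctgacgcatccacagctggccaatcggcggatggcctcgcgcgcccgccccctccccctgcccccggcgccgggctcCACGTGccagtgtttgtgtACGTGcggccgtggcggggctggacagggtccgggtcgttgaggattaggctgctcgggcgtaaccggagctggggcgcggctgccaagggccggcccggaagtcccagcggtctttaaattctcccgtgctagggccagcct
BNIP3: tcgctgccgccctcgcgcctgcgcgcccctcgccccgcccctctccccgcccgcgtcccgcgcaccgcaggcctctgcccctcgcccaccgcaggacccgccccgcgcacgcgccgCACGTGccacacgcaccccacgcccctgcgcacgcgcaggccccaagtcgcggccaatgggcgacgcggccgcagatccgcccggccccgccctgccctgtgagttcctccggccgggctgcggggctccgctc
P4HA1: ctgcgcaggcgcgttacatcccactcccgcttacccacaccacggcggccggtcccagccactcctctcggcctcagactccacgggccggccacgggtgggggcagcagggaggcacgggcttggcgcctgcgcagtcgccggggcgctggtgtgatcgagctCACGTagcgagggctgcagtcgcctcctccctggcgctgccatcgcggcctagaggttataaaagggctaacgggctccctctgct
ANGPTL4: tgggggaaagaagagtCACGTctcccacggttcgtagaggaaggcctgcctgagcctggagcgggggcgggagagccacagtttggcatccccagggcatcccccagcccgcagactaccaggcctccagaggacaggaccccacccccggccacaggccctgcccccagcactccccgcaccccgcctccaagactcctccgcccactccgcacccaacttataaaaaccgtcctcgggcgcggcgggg

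Glycolysis genes, many of which are also HIF targets, had 1 called member of 18 and a median of 0.16. That member was SLC2A3, the glucose transporter GLUT3, with signals of 780.4 with T-3764518, 36.6 in the knockout and 826 with DMSO, at least 11.8-fold higher. Of 7 tested genes of the glucose-sensing factor MondoA and of fructose use, 2 were called, both higher in SCD1-KO cells, while the median was 0.08. That median was -0.04 without a signal filter and -0.54 without probe sets that may read several transcripts. ARRDC4, an arrestin-domain protein, had signals of 132, 1022 and 214, 7.76-fold higher in SCD1-KO cells. KHK, the fructose kinase, was at least 2.31-fold higher there, with signals of 31.0, 131 and 166. For KHK it was thus the T-3764518 array that lay farther from DMSO. SDHD, a subunit of succinate dehydrogenase, was the 1 called of 40 oxidative phosphorylation genes (2.10-fold higher with T-3764518), and it lies in the same stretch as HYOU1.

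Interferon-stimulated genes stood higher in SCD1-KO cells. Of 17 tested members 7 were called, all in that direction, and the median was -0.80. IFI27, an interferon-induced mitochondrial protein, had signals of 52.0 with T-3764518, 370.0 in the knockout and 69.2 with DMSO, at least 6.54-fold higher in the knockout. IFI44 read 48.2, 239.7 and 44.4, at least 4.24-fold, and IFIT1, which binds foreign RNA, 185, 853 and 482 (4.60-fold). IFI27 and IFI44 were low on both SCD1-WT arrays, whereas IFIT1 was intermediate with DMSO. IFI44 lay under the filter level of 56.6 on both SCD1-WT arrays, so it passed the filter only through the SCD1-KO array. Its direction was thereby fixed, and it adds no support to the count. Of 22 members with a probe set, 17 passed the filter. All 9 tested genes of class I antigen presentation had log2 ratios under the median of all genes, and PSMB10, an immunoproteasome subunit, and TAPBP, which loads peptide on class I molecules, were called at 2.24-fold and 2.04-fold.

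Secreted signals moved in both directions. CCL20, a chemokine of lymphocytes, had signals of 130.4 with T-3764518, 612 in the knockout and 2.50 with DMSO, 4.70-fold higher in the knockout. CSF1, the macrophage growth factor, read 114, 353 and 124 (3.11-fold). IL18 was 2.93-fold higher with T-3764518 and lies in the stretch of HYOU1, and IL11 was at least 2.30-fold higher. CXCL8, CXCL2 and CXCL3, neutrophil chemokines, were not called at log2 ratios of -0.83, -0.79 and -0.98. TNFAIP2 was the 1 called of 13 NF-kB genes, 2.31-fold higher in SCD1-KO cells. The promoter of CCL20 (chr2:227813592-227813841, plus strand, GRCh38.p14) held 1 match to the NF-kB motif GGNNTTTCC, shown in capitals on the opposite strand. The motif was in 5 of 10 promoters of the chemokine and cytokine list, 7 of 11 of the NF-kB list and 5.48% of all genes. The IL11 window held 0 matches. Among the other lists searched the motif ranged from 0 of 20 hypoxia promoters to 4 of 15 of interferon-stimulated genes, with 3 of 14 of cholesterol synthesis.
CCL20: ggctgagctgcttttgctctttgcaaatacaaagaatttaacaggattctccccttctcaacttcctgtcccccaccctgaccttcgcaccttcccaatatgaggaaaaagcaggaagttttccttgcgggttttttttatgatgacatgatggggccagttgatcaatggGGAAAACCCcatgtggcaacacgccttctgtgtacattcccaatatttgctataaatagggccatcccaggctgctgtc

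**Figure D3:**
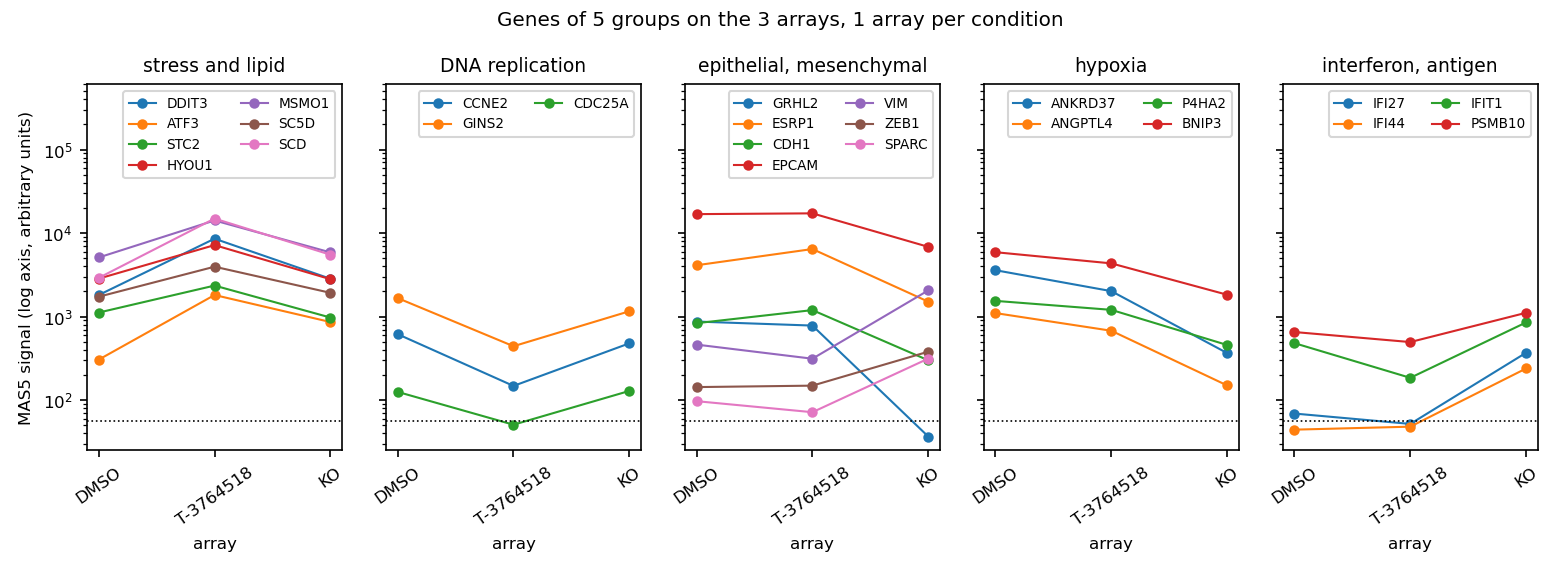
Each line follows 1 gene over the DMSO, T-3764518 and SCD1-KO arrays (1 array each), with MAS5 signal on a log axis and the filter level of 56.6 dotted. Stress and lipid genes peaked and replication genes dipped with T-3764518, whereas epithelial and hypoxia genes were lowest and vimentin, ZEB1, SPARC, IFI27, IFI44, IFIT1 and PSMB10 highest in SCD1-KO cells.

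Autophagy genes, followed in the study through LC3, centred on 0. Of 44 tested members 2 were called, and the median was -0.01, or 0.13 after scaling to 1 median, where all genes shifted alike. MAP1LC3B, which encodes LC3B of the autophagosome membrane, had signals of 9953 with T-3764518, 7854 in the knockout and 3917 with DMSO (log2 ratio 0.34). The called members were BNIP3 and MAP1LC3A, a paralog of MAP1LC3B, with signals of 119, 48.4 and 149.8, at least 1.87-fold higher with T-3764518. Both had their lowest signal in SCD1-KO cells. ULK1, the kinase that starts autophagy, was farthest in the other direction at -0.74. None of 24 lysosomal genes was called.

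The kinases upstream had mostly small ratios. PRKAA1, the AMPK catalytic subunit α1, had a log2 ratio of 0.13, RPS6KB1, which encodes S6K, 0.30, and MTOR -0.65. PRKAA2, the α2 subunit, had signals of 156 with T-3764518, 31.3 in the knockout and 139.99 with DMSO, at least 2.76-fold higher with the inhibitor, and was the 1 called of 26 genes of the AMPK and mTOR list. The median of the list was 0.03.

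Among all called genes, the 10 farthest apart in each direction were ranked with signals under the filter level raised to it. WDR72, a WD-repeat protein needed for tooth enamel, had signals of 1746 with T-3764518, 16.8 in the knockout and 2069.7 with DMSO, at least 30.9-fold higher. ASMTL, which resembles a melatonin synthesis enzyme, read 1893, 122 and 2292 (15.5-fold), and ANXA10, an annexin, 719.6, 5.32 and 641, at least 12.7-fold. After GRHL2 and SLC2A3 came NRP1, a co-receptor of semaphorins and VEGF (log2 ratio 3.46), PXDN, a peroxidase that cross-links collagen IV, at least 9.20-fold, and MPZL3 at least 8.81-fold. The last were RUNX2, a transcription factor of bone, at 8.55-fold, and MAML3, a Notch coactivator, at least 8.09-fold. In all 10 the signal with DMSO was above that of SCD1-KO cells. NRP1 and MPZL3 also differed between the SCD1-WT arrays, at 199 and 193 with DMSO against 651 and 498 with T-3764518.

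In the other direction RGS5, a regulator of G-protein signalling, was measured by 5 probe sets that were all higher in the knockout. The middle one had signals of 112 with T-3764518, 1134 in the knockout and 115 with DMSO (10.1-fold), whereas the one with the smallest ratio read 42.5, 88.0 and 64.1. LYZ, lysozyme, was at least 7.89-fold higher, FOXQ1, a forkhead factor, 6.61-fold, APOBEC3G, an antiviral cytidine deaminase, 6.61-fold, and PRSS33, a serine protease, 6.51-fold. BST2, the antiviral membrane protein tetherin, was 6.21-fold higher and TNFRSF19, a receptor of the tumour necrosis factor family, at least 6.06-fold. ARRDC4, VIM and IFI27 complete the ranking. In all 10 SCD1-KO cells were the highest of the 3 arrays. For LYZ and TNFRSF19 the filter guaranteed this, because both lay under its level on both SCD1-WT arrays. LYZ had signals of 45.1 with T-3764518 and 11 with DMSO, and TNFRSF19 of 19.7 and 55.3.

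**Figure D4:**
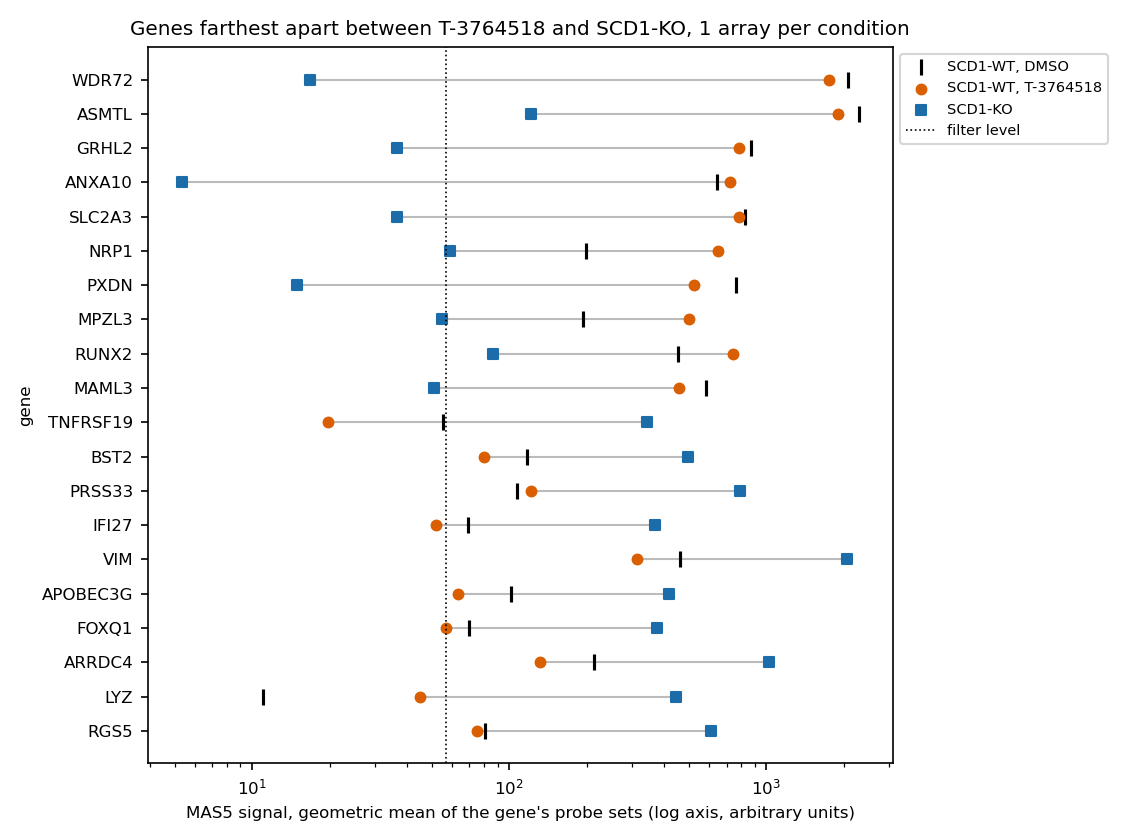
The 20 genes farthest apart between T-3764518 (orange circles) and SCD1-KO cells (blue squares), with DMSO as a black bar and the filter level of 56.6 dotted, are plotted by MAS5 signal on a log axis, 1 array each. The DMSO signal lay beside the T-3764518 signal for most genes, for example WDR72 at 2069.7 and 1746.

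The place of DMSO differed between the directions of call. Among the 382 genes higher with T-3764518, the DMSO signal was nearer to T-3764518 in 314 (82.2%) and nearer to SCD1-KO cells in 68. Of the 557 genes higher in SCD1-KO cells it was nearer to T-3764518 in 282 (50.6%), and over all tested genes in 51.6%. It was above both arrays in 157 of the former and 62 of the latter, and below both in 26 and 71. Where 1 array stands apart, DMSO falls near the other by construction, so these counts say which array differed from DMSO and are no test.

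Several remaining lists had called members on both sides. ID2, an inhibitor of basic helix-loop-helix factors, had signals of 3886 with T-3764518, 560.3 in the knockout and 5698 with DMSO (6.94-fold), and ID4 was higher by at least 1.76-fold with the inhibitor. BMP4, a growth factor, was 4.09-fold and BAMBI, a decoy receptor for that family, 2.22-fold higher in SCD1-KO cells. RNF43, a ligase that removes Wnt receptors, was higher with T-3764518, with signals of 982 there, 245.7 in the knockout and 1280.2 with DMSO, whereas AXIN2, a Wnt feedback inhibitor, was 2.62-fold higher in SCD1-KO cells although 1 of its 3 probe sets lay on the other side of 0 (0.17). The integrin subunit ITGB4 (3.08-fold) and THBS1, thrombospondin 1 (2.57-fold), were higher in SCD1-KO cells. FOS, an AP-1 subunit, was 2.52-fold higher with T-3764518, and 12 of 13 genes of its list lay above the median of all genes. NRG1, a ligand of ERBB receptors, was at least 2.78-fold higher in the knockout, as were HSPH1, a heat shock protein (2.36-fold), the xenobiotic enzyme CYP1A1 (at least 2.11-fold) and the exporter ABCC3 (2.03-fold). AXIN2 and CYP1A1 had DMSO signals of 217 and 147, above both other arrays. OSGIN1, an NRF2 target, was 2.23-fold higher with T-3764518. No member was called among 8 metallothionein and zinc genes, 13 BCL2 family genes, 27 proteasome subunits and 12 ERK feedback genes.

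The genes were then placed in the order of the RefSeq annotation of GRCh38.p14, because SCD1-KO cells are a clone, and the median log2 ratio was taken over each run of 41 neighbouring tested genes. Of 11381 runs, 95% had medians between -0.31 and 0.19, and 225 reached 0.5 in size. The latter joined into 5 stretches with 418 tested genes in all, chosen here by these same ratios, and their values are a description. The longest ran from DDX10 to B3GAT1-DT with 123 genes and a median of 0.71, and 110 of them lay above the median of all genes. Within it the run from HYOU1 to PUS3 had a median of 0.83, with 39 of 41 genes above. In this stretch 32 genes, or 26.0%, were called higher with T-3764518 and 0 in the knockout, against 3.1% of all genes. The median log2 ratio to DMSO was -0.03 with T-3764518 and -0.79 in the knockout, so the SCD1-KO array differed from both SCD1-WT arrays. Its called genes include MPZL3, IL18, SDHD, HYOU1 and SC5D. HYOU1 and SC5D were themselves not low in SCD1-KO cells, with log2 ratios to DMSO of -0.02 and 0.16 there and of 1.33 and 1.19 with T-3764518. MPZL3 lay off DMSO on both arrays, at -1.82 in the knockout and 1.37 with T-3764518.

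The second stretch of that direction ran from TMEM154 to TRIML2 with 68 genes and a median of 0.53, with 22 genes called higher with T-3764518 and 2 in the knockout. It holds MSMO1, ETFDH, ANKRD37 and ANXA10, and its medians to DMSO were -0.11 with T-3764518 and -0.72 in the knockout. MSMO1 itself was not low in the knockout, at 0.20 there and 1.47 with T-3764518. A further 3 stretches were higher in SCD1-KO cells. From ABCA11P to RELL1, 91 of 108 genes lay under the median of all genes, with a median of -0.60 and medians to DMSO of -0.11 with T-3764518 and 0.45 in the knockout. From RAB30-DT to FDXACB1, directly before and overlapping the stretch of HYOU1, 64 of 79 did, with a median of -0.50 and medians to DMSO of -0.08 and 0.49. The last, from LY6E to LRRC14 with 51 genes, had a median of -0.48, and there it was the T-3764518 array that lay off DMSO, at -0.35 against 0.06. DNA copy number was not measured in these samples, and its part in the ratios of the genes in these stretches was not tested.

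**Figure D5:**
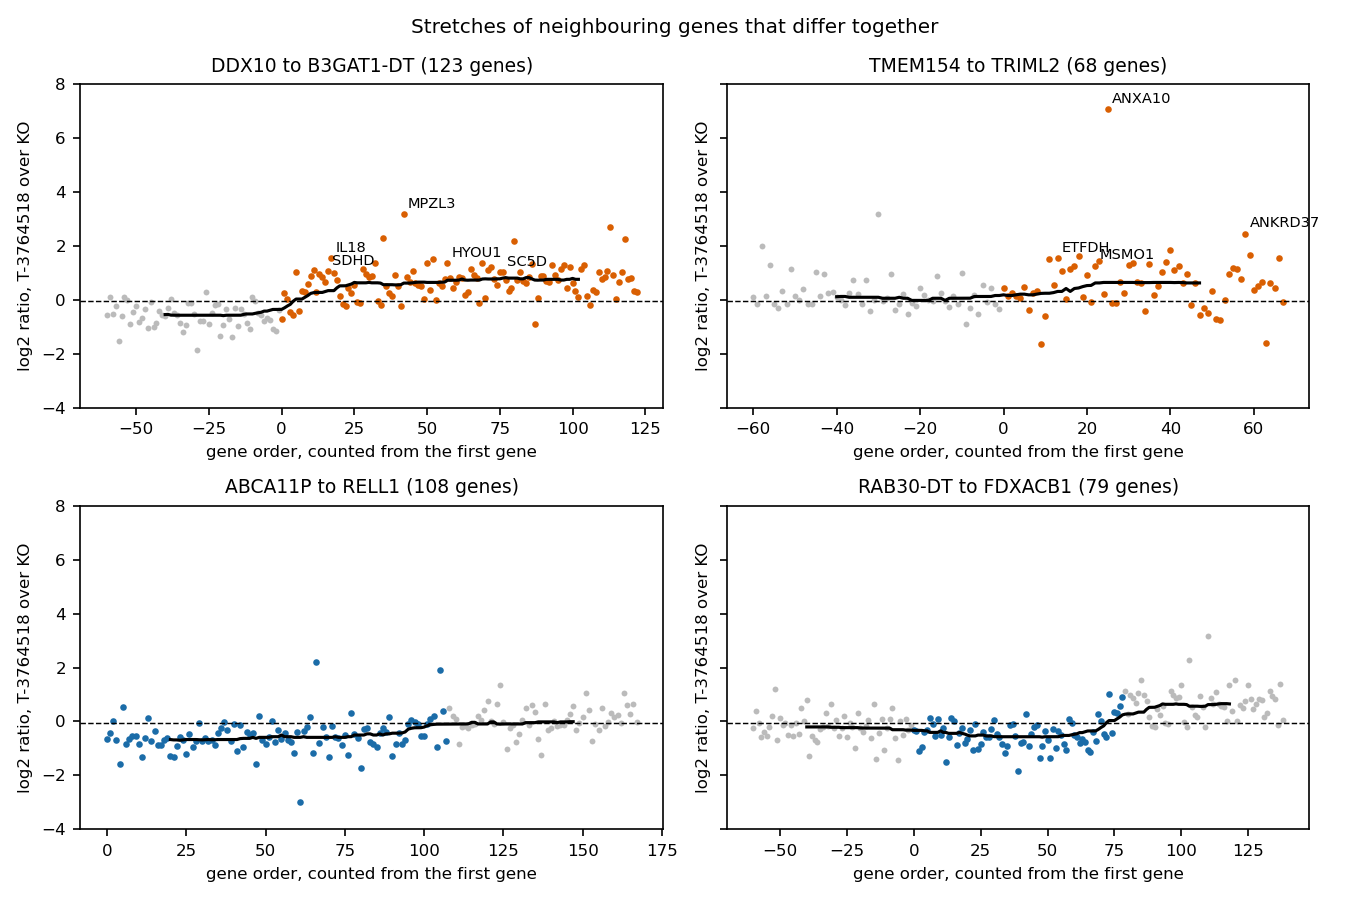
In 4 stretches, coloured points are genes at their log2 ratio of T-3764518 over SCD1-KO (1 array each) in their order along the annotation, counted from the first gene of the stretch, grey points are up to 60 tested genes on either side, the black line is the running median of 41 genes and the dashed line the median of all genes. The stretches of RAB30-DT and DDX10 overlap, from DDX10 to FDXACB1, and the ratio steps up from the former to the latter, with medians of -0.50 and 0.71.

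Outside the 5 stretches, 325 genes were called higher with T-3764518 and 525 in the knockout among 11903, which is 2.73% and 4.41%. The counts of the leading lists changed little there. All 9 called epithelial genes, 5 of the 6 hypoxia genes, all 3 of the ATF4 pathway, all 7 interferon-stimulated genes, all 5 replication genes and all 3 mesenchymal genes lay outside. For cholesterol synthesis and endoplasmic reticulum chaperones all called members lay inside, and the medians of the members outside were 0.45 and 0.54.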

How the data were processed

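Total RNA of HCT-116 cells was hybridised to the Human Genome U133 Plus 2.0 Array, 1 array per condition, and the authors deposited 1 linear signal intensity per probe set, credited in the submitters' processing notes to MAS5 (version not given in the sources used here). Later steps used pandas 2.3.3 and numpy 2.4.6 under Python 3.11.15, lowess from statsmodels 0.14.6, trimmed means from scipy 1.17.1, and matplotlib 3.10.9 for figures. Of the probe sets, 41091 carry 1 gene in the platform annotation, 1801 several and 11777 none. By gene ID 41037 matched RefSeq genes of GRCh38.p14. The 62 control probe sets were left out. The SCD1-KO values carry more decimals than the others (54482 values with over 1 decimal, against 0). Log2 ratios were not rescaled.

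Printed gene signals are geometric means of kept probe sets. Where a signal lay under the filter level (percentile 50), it was raised to that level, and the fold is given as "at least" where this changed the median over the gene's probe sets. A difference of a log2 ratio of 1 was called on the signals before they were raised, and the calculation was tested on simulated data. A called gene can therefore carry a bound under 2-fold, as MAP1LC3A, CDC25A and ID4 do. The filter used the mean over the 3 arrays. A probe set under the level on both SCD1-WT arrays could thus pass only through a higher SCD1-KO signal, which fixed its direction. Among the named genes with 1 kept probe set this holds for IFI44, LYZ, TNFRSF19 and NRG1. The number of arrays limits the precision.

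The genes named were SCD, FASN, MAP1LC3B, PRKAA1, PRKAA2, ACACA, ACACB, RPS6KB1 and MTOR, the 10 farthest apart in each direction with all kept probe sets on 1 side of 0 (XIST and Y-linked genes left out), up to 3 called members per list and direction, or the farthest where none was called, and the ends of runs. Other members were named after their values were seen. The members and 47 lists were chosen with earlier results of these data known. Some list genes are not reported here. Alternatives were other scalings, filters, offsets, summaries of probe sets and thresholds.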

Additional observations from a re-analysis of the deposited data

How the results depend on the processing

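The counts of called genes (higher with T-3764518, then higher in SCD1-KO cells) were 2369 and 2385 of 19775 without a signal filter, 167 and 143 of 7955 with a filter at percentile 75, 1119 and 1752 at 1.5-fold, and 106 and 129 at 3-fold, against 382 and 557. SCD fell to 0.71 by its brightest probe set. Scaling to 1 median gave medians of 0.19 for fatty acid synthesis, 0.65 for cholesterol synthesis, 0.67 for the ATF4 pathway, 0.69 for endoplasmic reticulum chaperones, -0.66 for interferon-stimulated genes, 0.96 for hypoxia targets, 0.13 for autophagy, -0.49 for DNA replication and 1.36 for epithelial genes. Without probe sets that may read several transcripts, cholesterol synthesis was at 0.35, the ATF4 pathway at 0.70, interferon-stimulated genes at -0.91 and hypoxia targets at 0.57. Interferon-stimulated genes were at -0.67 after quantile normalization, -0.68 after lowess, -0.63 at percentile 75 and -0.92 by the brightest probe set, and hypoxia targets at 0.62 without a filter and 0.62 by the brightest probe set. Autophagy was at 0.075 after quantile normalization, 0.075 after lowess, 0.12 at percentile 75 and 0.061 by the brightest probe set. Epithelial genes were at 1.00 with a filter on the 2 arrays alone, 0.98 with an offset and 1.00 with signals raised to the filter level. The cause of these moves was not tested. No called gene that is named changed sign in a setting where it had a value, but some fell under 2-fold. Of 77 such genes, 7 did so without a signal filter and 4 by the brightest probe set. With signals raised to the filter level, an offset, the mean of probe sets or scaling to 1 median, 3 did. At percentile 75 only 41 had a value, and 2 of these fell under 2-fold. Of 47 lists 18 had a median of the other sign in at least 1 setting, and the reported medians of these lists lay within 0.21 of 0. No paired analysis was possible because each condition had 1 array.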
